A study of Danio rerio with 8 samples.

Results

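The genes described here were the matrix metalloproteinases (mmp), their tissue inhibitors (timp), the ADAMTS proteases (adamts) and the ADAMTS-like proteins (adamtsl), taken from the gene table by symbol: every row whose symbol was mmp, timp, adamts or adamtsl followed by a digit. This gave 53 rows of 32520, of which 26 were mmp, 5 timp, 18 adamts and 4 adamtsl. The rule used no expression value. Among the rows, 2 symbols were in capitals (ADAMTS7 and MMP23B), and 3 symbols (adamts15b, mmp13a and mmp15a) stood on 2 rows each, which are told apart below by their Ensembl gene identifier.

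All libraries came from zebrafish larvae of the AB strain carrying 1 copy of the Tg(sp7:sp7-GFP) reporter (ulg071 Tg), in which the green fluorescent protein cDNA sits in the endogenous gene of sp7, a transcription factor of osteoblasts. Fluorescent larvae were picked at 3 days post fertilization (dpf), pools of 100 to 150 were dissociated with enzymes at 4 dpf, and cells were sorted by fluorescence into a weakly fluorescent subpopulation, P1, and a strongly fluorescent one, P2. The deposit held 5 libraries of P1, numbered 1, 2, 3, 5 and 6, and 3 of P2, numbered 1, 2 and 4, each from about 30000 to 50000 cells amplified with the SMART-Seq protocol, and only libraries judged of high quality had been sequenced. Same-numbered libraries of P1 and P2 share the first part of their label (RR2b and RR2a for number 1, RR3b and RR3a for number 2), but what it marks is not stated, and the p-values measure the spread between these libraries.

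Matrix metalloproteinases are zinc-dependent proteases that are made as inactive precursors and cut collagens and other proteins of the extracellular matrix. Some are secreted and others, the membrane-type enzymes, stay at the cell surface, and tissue inhibitors bind and block the active enzymes. In mammals, the inhibitor TIMP2 also holds the MMP2 precursor to the membrane-type protease MMP14, which activates it. The ADAMTS enzymes are secreted relatives that trim procollagens, proteoglycans and microfibril proteins, whereas ADAMTS-like proteins have a similar layout without the protease domain. Osteoblasts, the cells that lay down bone matrix, use these enzymes to mature and remodel collagen.

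The recovered totals were 7510312 to 13034333 reads per library, and the 53 rows held 16955 to 30383 reads per P1 library and 36862 to 47500 per P2 library. The targeted gene separated the sorts as labelled, with sp7 at 30.0 to 99.1 normalized read counts in P1 and 771 to 1227 in P2. All 11 genes of an osteoblast list were present, and their summed value was 374 to 1395 in P1 and 46967 to 65547 in P2. Most of the P2 sum came from col10a1a, at 96.3 to 392 in P1 and 33015 to 51802 in P2. Within the list, bglapl alone overlapped between the groups, at 0.556 to 6.35 in P1 and 2.05 to 116 in P2. Markers of other cells were also present. The 14 chondrocyte genes summed to 14185 to 21487 in P1 and 11604 to 23461 in P2, and the osteoclast list to 449 to 928 in P1 and 1582 to 2289 in P2. Most of the chondrocyte sum was col2a1a and col11a2, and col11a2 was higher in every P2 library (1208 to 1919 in P1, 5887 to 6890 in P2). Lower in every P2 library were acana, matn3b, ucmaa, ucmab and col9a1b (59.8 to 272 in P1, 0.679 to 31.3 in P2). The 14 keratinocyte genes summed to 2458 to 25215 in P1 and 409 to 2644 in P2, and the neutrophil list to 274 to 842 in P1 and 81.4 to 224 in P2. A pair of libraries recurs below. P1 library 2 had the highest keratinocyte sum (25215, with 2458 to 4869 in the other P1 libraries) and the highest sum of tendon and fin mesenchyme genes (13814.5, with 4841 to 5320 in the others), and P2 library 2 had a keratinocyte sum of 2644 and a muscle sum of 28214 where P2 libraries 1 and 4 had 409 to 478 and 216 to 228. The tendon and fin mesenchyme sum of P1 library 2 came mostly from and1 (4370) and and2 (6257), and and3 (394) and dcn (987) were also highest there. Other genes of that list, scxa (57.8), tnmd (301) and pdgfra (728), were lower there than in any other P1 library. In such bulk samples, fewer cells of a type and less RNA per cell cannot be told apart.

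Values are normalized read counts, which the authors obtained by dividing the reads of a gene by 1 size factor per library, so that 3 reads correspond to 0.556 to 1.02 depending on the library. A gene was tested when at least 10 reads were present in at least 3 libraries. Fold changes are given as P2 minus P1 on the scale of log2(value + 1), with their standard error (SE), and understate the change of genes with few reads. A gene was called when the adjusted p of limma, corrected over all 18475 genes tested, was below 0.05. Levels of different genes were not compared, because transcript lengths were not used here.

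Of the 53 rows, 42 were tested and 13 were called, 11 higher and 2 lower in P2. Among all genes tested, 14.6% were called, 7.57% higher and 7.05% lower in P2. Every P2 library exceeded every P1 library for 13 of the 42 rows, and every P2 library lay below every P1 library for 2, where 11.8% and 8.82% of all tested genes did so. The median log2 fold change of the 42 rows was 0.55, beside 0.00 over all genes tested. By family, 4 mmp genes were called higher and 1 lower of 18 tested, 2 timp genes higher of 4, 5 adamts genes higher and 1 lower of 16, and none of 4 adamtsl genes. The median log2 fold change was 0.63 for mmp, 0.52 for timp, 1.19 for adamts and -0.49 for adamtsl. How many rows were called rested in part on single libraries: leaving out 1 library at a time gave 4 to 18 called rows, the fewest without P2 library 1 and the most without P2 library 2. Calls over all genes moved in the same way, from 2700 to 876 without P2 library 1 and to 3992 without P2 library 2, so this shift was not particular to these rows.

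**Figure D1:**
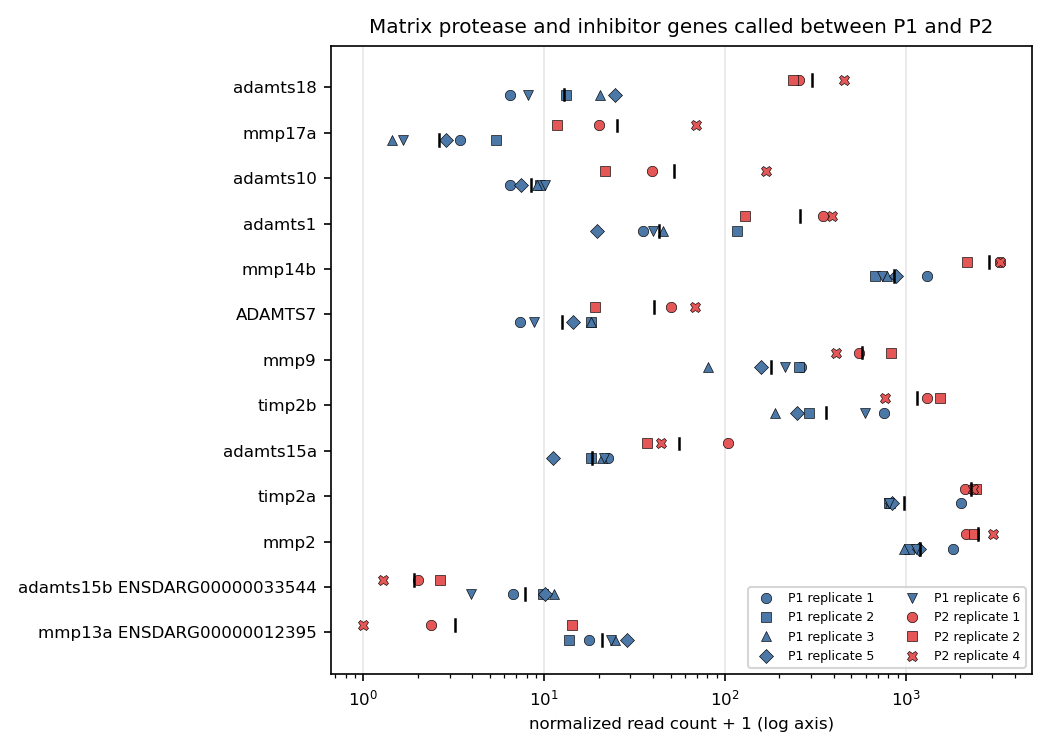
Normalized read count plus 1 (log axis) of the 13 called genes in each library, with P1 in blue, P2 in red, 1 symbol per library and black ticks at the mean of the log values. For the 11 genes called higher every red point lies to the right of every blue point, while for mmp13a the red point of P2 library 2 lies among the blue points.

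Among the genes of the MMP14, MMP2 and TIMP2 set, mmp14b, mmp2, timp2a and timp2b were called higher in P2 and mmp14a was not called. The membrane-type collagenase gene mmp14b had 1315, 677, 786, 875 and 737 normalized read counts in P1 libraries 1, 2, 3, 5 and 6, and 3311, 2175 and 3317 in P2 libraries 1, 2 and 4. Its lowest P2 library stood well above its highest P1 library, the P2 mean was 3.34 times the P1 mean, and the log2 fold change was 1.75 (SE 0.32, adjusted p = 0.00427). The call held whichever library was left out, with adjusted p up to 0.0336. Its paralog mmp14a had 1895, 769, 943, 884 and 1031 in the same P1 libraries and 1589.8, 1527 and 1989.7 in P2. Here P1 library 1 lay inside the P2 range, so the groups overlapped, and the log2 fold change was 0.69 (SE 0.34, adjusted p = 0.177).

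The gelatinase gene mmp2, whose protein cuts denatured collagen and basement membrane collagen, had 1809, 1043, 979, 1174 and 1133 normalized read counts in P1 and 2151, 2387 and 3034 in P2. The groups did not overlap, although P1 library 1 came near the lowest P2 value. In log2 terms the rise was 1.06 (SE 0.31, adjusted p = 0.0400), and the P2 mean was 2.06 times the P1 mean. This call was close to the threshold: it held without P1 library 1 (adjusted p = 0.0233) and without P2 library 2 (0.0453), and was lost when any of P1 libraries 2, 3, 5 and 6 or P2 libraries 1 and 4 was left out (0.0574 to 0.137). It was also lost with median-of-ratios size factors (adjusted p = 0.0646), with TMM factors (0.0619), without the low-count filter (0.0821) and with edgeR on the recovered reads (0.0788).

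The other gelatinase gene, mmp9, known in mammals from osteoclasts, neutrophils and cells at the growth plate, had 260.5, 254, 79.5, 156 and 213 normalized read counts in P1 and 548, 831 and 411 in P2. P2 library 2 was the highest, all 3 P2 libraries lay above all 5 P1 libraries, and the log2 fold change was 1.68 (SE 0.40, adjusted p = 0.0172). Leaving out P2 library 1 ended the call (adjusted p = 0.0688). Lists of other cells known for mmp9 were read beside it: the neutrophil sum was 274 to 842 in P1 and 81.4 to 224 in P2, with 2 of its 10 genes at 0 in every P2 library, and the macrophage sum was 270.4 to 481 in P1 and 56.0 to 121 in P2, with 2 of its 12 genes at 0 in every P2 library. The osteoclast list, which was higher in P2 as given above, drew most of that from tnfrsf11a, the receptor for the osteoclast growth factor RANKL, at 125 to 456 in P1 and 1228 to 2021 in P2. The remaining osteoclast genes summed to 319 to 473 in P1 and 267 to 354 in P2. Most of that sum was ctsk, at 200 to 360 in P1 and 214 to 304 in P2. Of the others, acp5a (14.2 to 28.9 in P1, 2.05 to 8.81 in P2) was lower in every P2 library. So were calcr (7.23 to 12.6 and 0 to 1.02), ocstamp (12.1 to 19.5 and 0 to 0.826), itgb3b and clcn7, while acp5b overlapped. Within P2, library 2 had the highest mmp9 value and also the highest neutrophil (224), macrophage (121) and remaining osteoclast (354) sums. Within P1, library 1 was highest for mmp9 and for the remaining osteoclast sum (473), library 5 for the neutrophil sum (842) and library 2 for the macrophage sum (481). In P1 library 1 that osteoclast sum was mostly ctsk (360), while acp5a (14.2) and ocstamp (12.1) were the lowest in P1. The part of such cells in the mmp9 values was not tested.

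Of the inhibitor genes, timp2a had 2015, 803, 814, 833 and 806 normalized read counts in P1 and 2108, 2447 and 2338 in P2. P1 libraries 2, 3, 5 and 6 lay within a narrow band and P1 library 1 stood far above them, just short of the lowest P2 library. This gave a rise of 1.23 on the log2 scale (SE 0.36, adjusted p = 0.0377). Without P1 library 1 the adjusted p was 0.00671, whereas leaving out any other library ended the call (0.0558 to 0.108). The call was also lost with median-of-ratios factors (0.0556), TMM (0.0546), no low-count filter (0.0690), voom (0.0507), edgeR (0.0980) and DESeq2 (0.0552).

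The copy timp2b had 752, 289, 189, 249.6 and 590.4 normalized read counts in P1 and 1314, 1535 and 763 in P2. P1 libraries 1 and 6 were the high ones, and P1 library 1 nearly reached P2 library 4 without overlapping it. On the log2 scale timp2b rose by 1.68 (SE 0.45, adjusted p = 0.0282). The call was lost without P1 library 3 (0.0583), P1 library 5 (0.0635), P2 library 1 (0.109) or P2 library 2 (0.0568), and with edgeR (0.0704). The osteoblast list summed to 1395 in P1 library 1 and 802 in P1 library 6, with 374 to 662 in the other P1 libraries, so the P1 libraries with the most timp2b were also those with the most osteoblast marker reads. They were the P1 libraries with the most muscle marker reads as well, 37959 and 55204 where the others had 2177 to 3351, and in P2 timp2b was highest in library 2, which had the highest muscle sum of that group (28214). All 14 muscle genes of the list were in the table and none was at 0 in every P2 library. The part of such cells in the timp2b values was not tested.

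No change was called for the timp4 genes, which encode a further kind of inhibitor and lie side by side, within the span of another gene, in the RefSeq annotation. For timp4.3 the values were 5.14, 26.9, 8.19, 8.86 and 20.48 in P1 and 4.75, 14.9 and 1.76 in P2, and the fold change was -1.01 on the log2 scale (SE 0.65, adjusted p = 0.306). P2 library 2 was the high P2 library, within the P1 range. For timp4.1 the values were 0, 6.30, 2.66, 3.22 and 0.325 in P1 and 0, 6.33 and 0.878 in P2, and the log2 fold change was -0.18 (SE 0.80, adjusted p = 0.897), a direction that turned when P1 library 2 or P2 library 1 was left out. Only 9 reads in all were counted for timp4.2, which was not tested. Whether counting used strand was not stated, so reads of these genes and of overlapping genes could not be separated here. The same limit holds for the called genes mmp9, timp2a, timp2b and ADAMTS7, which also overlap other protein-coding genes in that annotation.

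**Figure D2:**
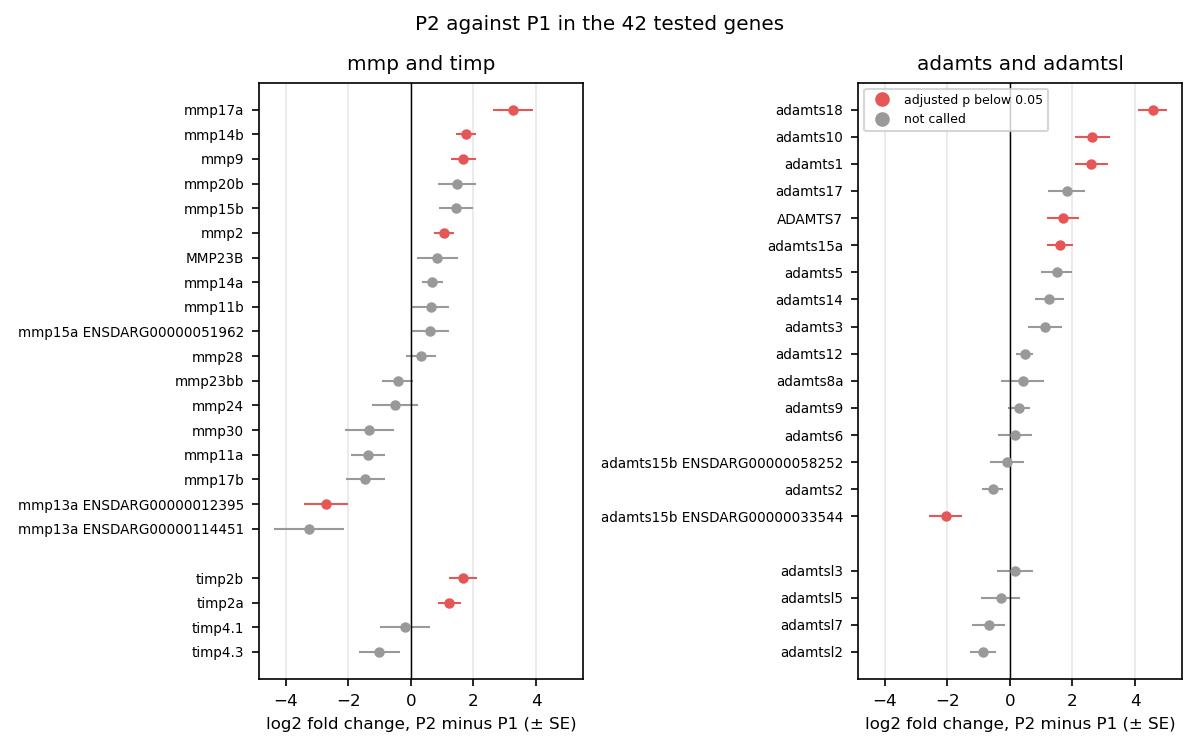
Log2 fold change (P2 minus P1) with its standard error for the 42 tested genes, mmp and timp on the left, adamts and adamtsl on the right, each family sorted by value and called genes in red. The highest value is that of adamts18 (4.56) and the lowest that of mmp13a ENSDARG00000114451 (-3.25), which was not called and has the widest error (1.13).

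Among the other membrane-type genes, mmp17a was called higher in P2 and mmp17b was not called, with a fold change in the opposite direction. These genes encode a protease that in mammals is tied to the membrane by a lipid (GPI) anchor. For mmp17a the values were 2.42, 4.45, 0.443, 1.88 and 0.650 normalized read counts in P1 and 19.0, 10.7 and 68.5 in P2. P2 library 4 was highest, and the groups were well apart, with 2 to 24 reads per P1 library and 39 to 234 per P2 library. On the log2 scale mmp17a rose by 3.27 (SE 0.65, adjusted p = 0.00719), and the call held whichever library was left out (adjusted p up to 0.0424), although only 1 P1 library had the 10 reads that the filter asks for.

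For mmp17b the values were 10.3, 6.67, 2.43, 9.40 and 8.45 in P1 and 0.679, 6.33 and 0.878 in P2. P2 library 2 lay within the P1 range and P2 libraries 1 and 4 below it. With 2, 23 and 3 reads in P2, mmp17b passed the read filter only through its P1 libraries. Over all libraries the log2 fold change was -1.46 (SE 0.62, adjusted p = 0.128), and mmp17b was called lower only without P2 library 2 (log2 fold change -2.14, adjusted p = 0.0267). That library also held more keratinocyte and muscle marker reads than the other P2 libraries, as given above, and the highest macrophage, neutrophil, erythroid and neuron sums of P2. The part of such cells in its mmp17b value was not tested.

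The membrane-type genes mmp15a and mmp15b were not called. For mmp15b the values were 4.83, 13.7, 8.63, 6.44 and 7.48 in P1 and 39.7, 7.98 and 35.7 in P2 (log2 fold change 1.44, SE 0.55, adjusted p = 0.0949). P2 library 2 again lay among the P1 libraries, and mmp15b was called without it (adjusted p = 0.00942) and with DESeq2 on all libraries (0.0365). For mmp15a ENSDARG00000051962 the values were 6.04, 11.7, 9.30, 10.5 and 6.18 in P1 and 12.6, 4.68 and 39.5 in P2, and the log2 fold change of 0.63 (SE 0.58, adjusted p = 0.488) rested on P2 library 4, without which it was -0.11. The second mmp15a row, ENSDARG00000051959, had 2 reads in all, and another name table pairs this identifier with the gene zpd. The remaining membrane-type genes were mmp24, whose log2 fold change was -0.50 (SE 0.74, adjusted p = 0.680), and mmp16b, mmp25a and mmp25b, with 28 to 30 reads each over the 8 libraries, too few to be tested.

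The collagenase gene mmp13a stood on 2 rows, and 1 of them was called lower in P2. MMP13 is a fibrillar collagenase of mammalian bone and is made there by osteoblasts and hypertrophic chondrocytes. On row ENSDARG00000012395, mmp13a had 16.6, 12.8, 23.7, 27.6 and 22.4 normalized read counts in P1 and 1.36, 13.2 and 0 in P2. P2 libraries 1 and 4, with 4 reads and 0 reads, lay below every P1 library, while P2 library 2, with 48 reads, lay at the low end of the P1 range. For mmp13a ENSDARG00000012395 the log2 fold change was -2.70 (SE 0.71, adjusted p = 0.0256). This call was lost without P1 library 3 (0.0523), P1 library 5 (0.0606), P2 library 1 (0.102) or P2 library 4 (0.110), and with voom (0.0604) and edgeR (0.156). Without P2 library 2 the adjusted p was 0.000849.

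On row ENSDARG00000114451, mmp13a had 80.4, 76.3, 23.9, 53.1 and 51.7 normalized read counts in P1 and 0.339, 102.7 and 0.293 in P2. P2 libraries 1 and 4 held 1 read each where P2 library 2 held 373, the highest value of all 8 libraries. This row too passed the read filter only through its P1 libraries. The log2 fold change of mmp13a ENSDARG00000114451 was -3.25 (SE 1.13, adjusted p = 0.0704), not called over all libraries and called without P2 library 2 (-5.35, adjusted p = 6.66e-05). Summed over both rows, the mmp13a values were 97.0, 89.1, 47.6, 80.8 and 74.1 in P1 and 1.70, 115.9 and 0.293 in P2. Whether reads were divided between the rows could not be examined without the sequences of both, so the share of each row is uncertain.

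Beside the mmp13a values, the keratinocyte list summed to 478, 2644 and 409 normalized read counts in P2 libraries 1, 2 and 4. Within the list, the cell junction genes epcam (125, 771 and 44.8) and cldni (51.2, 534 and 11.1) differed widely. The values of tp63 were closer (17.0, 22.6 and 11.1), and evpla alone was lowest in P2 library 2 (20.7, 15.1 and 22.0). All 14 genes of the keratinocyte list had reads in P2. Within P2, library 2 was also the highest for the muscle (28214), macrophage (121), neutrophil (224, mostly nccrp1), erythroid (664, mostly cahz) and neuron (928) sums. It was not the highest for the osteoblast, osteoclast, endothelial, chondrocyte or tendon and fin mesenchyme sums. In P1, library 2 had the highest keratinocyte sum (25215), and its mmp13a value on row ENSDARG00000012395 (12.8) was the lowest in P1. On row ENSDARG00000114451 its value (76.3) was below that of P1 library 1 (80.4) and above those of the other P1 libraries (23.9 to 53.1). What part other cells had in the mmp13a reads was not tested. The related gene mmp13b had 51 reads over the 8 libraries, 22 of them in P2 library 2, and was not tested.

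**Figure D3:**
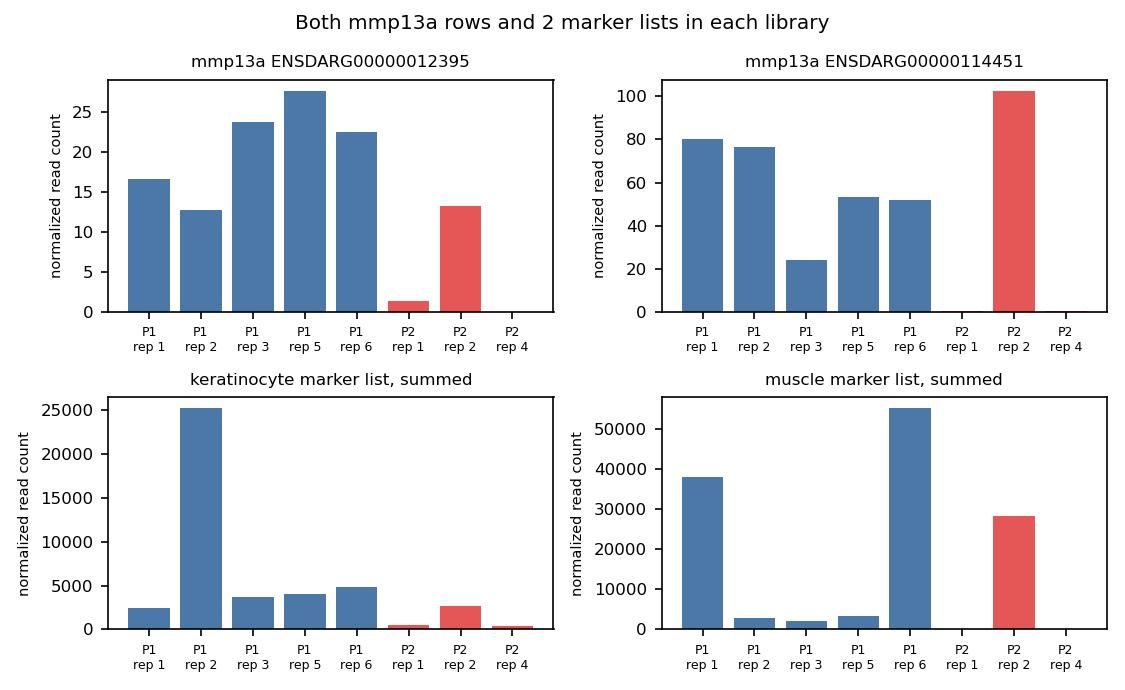
Normalized read count of each mmp13a row (top) and summed normalized read count of the keratinocyte and muscle marker lists (bottom) in each library, P1 in blue and P2 in red, all axes starting at 0. P2 library 2 stands above P2 libraries 1 and 4 in all 4 panels. It does so also for the macrophage, neutrophil (mostly nccrp1), erythroid (mostly cahz) and neuron sums, which are not drawn. P1 library 2 has the tallest keratinocyte bar (25215), with mmp13a bars of 12.8 on row ENSDARG00000012395 and 76.3 on row ENSDARG00000114451.

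The secreted stromelysin-3 genes, whose protein is switched on inside the cell by furin, differed in direction, and neither was called. For mmp11a the values were 6.65, 23.0, 22.1, 9.93 and 10.1 normalized read counts in P1 and 2.04, 4.13 and 9.07 in P2 (log2 fold change -1.36, SE 0.55, adjusted p = 0.112). For mmp11b they were 9.06, 20.6, 8.63, 6.98 and 5.202 in P1 and 12.9, 6.06 and 37.8 in P2 (log2 fold change 0.63, SE 0.59, adjusted p = 0.489). Both overlapped between the groups, and the mmp11b difference rested on P2 library 4, without which it was -0.02. No call was made for mmp23bb (log2 fold change -0.41, SE 0.49, adjusted p = 0.599) or for mmp30 (-1.33, SE 0.79, adjusted p = 0.263), whose P1 values ranged from 1.55 to 32.6, with the highest in P1 library 2.

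Ratios within a library showed how paralogs differed. All 7 pairs of an a and a b row with both members tested were compared, after their values had been seen, on the log2(value + 1) scale, by an exact two-sided permutation test over the 56 ways to divide the 8 libraries, for which 0.0179 is the smallest p. The plain ratio of mmp14b to mmp14a reads, which does not depend on the size factors, was 0.694 to 0.990 in P1 and 1.42 to 2.08 in P2. The log2 difference was 1.06 (exact permutation p = 0.0179, 0.0312 adjusted over the 7 pairs), and it stayed between 0.92 and 1.19 whichever library was left out. Gene length is the same on both sides of this comparison, and the groups did not overlap.

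The ratio of mmp11b to mmp11a reads was 0.390 to 1.36 in P1 and 1.47 to 6.33 in P2, a log2 difference of 2.00 with the same exact permutation p of 0.0179 (adjusted 0.0312). Without P1 library 2 or P1 library 5 the exact p was 0.0571, with log2 differences of 2.07 and 2.00. For mmp17b over mmp17a the mean log2 ratio was 1.57 in P1 and -3.15 in P2, a difference of -4.72, and for adamts15b ENSDARG00000033544 over adamts15a it was -1.22 and -4.86, a difference of -3.65. Both had the smallest exact permutation p, 0.0179 (adjusted 0.0312), and both rest on few reads, 2 to 24 of mmp17a per P1 library and 1 to 6 of adamts15b per P2 library. That adamts15b row passed the read filter only through P1, where it is high. With nothing added to the values, in an alternative chosen after seeing the data, these differences were -6.18 for mmp17 and -4.75 for adamts15, with the same exact p.

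The groups overlapped for the second adamts15b row, ENSDARG00000058252, over adamts15a (difference -1.70, exact permutation p = 0.0536, adjusted 0.0750), for mmp15b over mmp15a (0.81, exact permutation p = 0.107, adjusted 0.125) and for timp2b over timp2a (0.45, exact permutation p = 0.357). For the second adamts15b row the exact p was 0.0286 without P1 library 2 and 0.0476 without P2 library 2, and for mmp15b over mmp15a it was 0.0476 without P2 library 4.

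**Figure D4:**
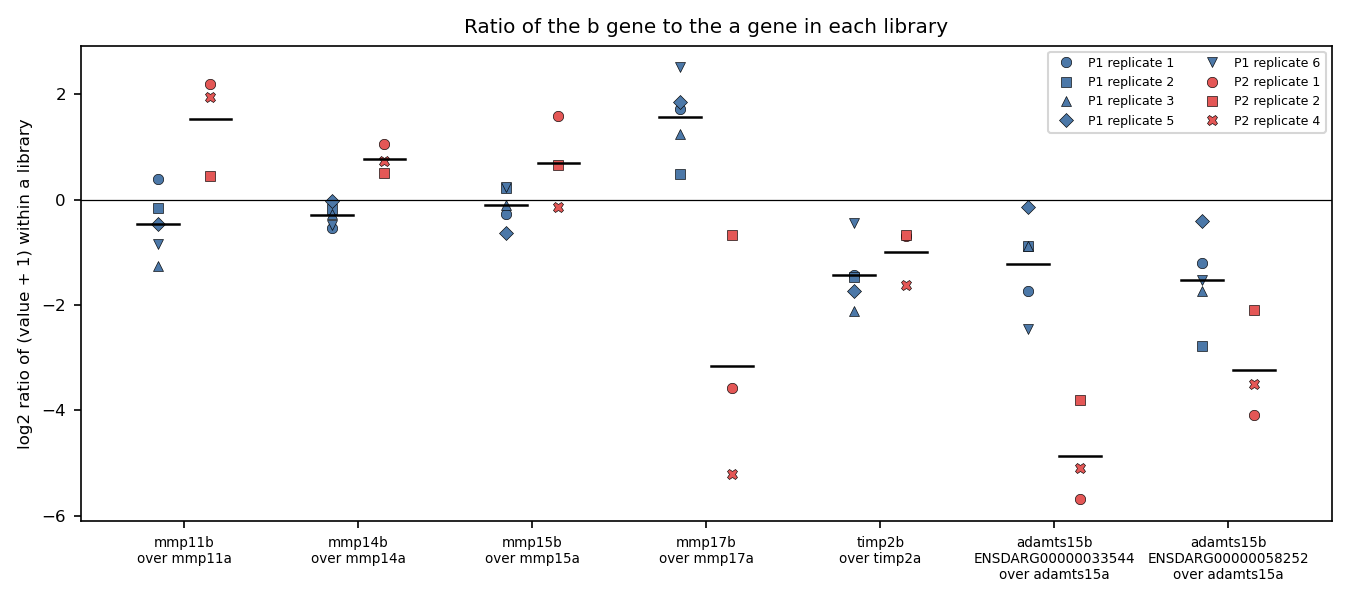
Log2 ratio of the b gene to the a gene, each as normalized value plus 1, within each library for 7 pairs, P1 in blue and P2 in red, black lines at the group means. The P1 and P2 points do not overlap for mmp11, mmp14, mmp17 and the adamts15b row ENSDARG00000033544, and they overlap for mmp15, timp2 and the adamts15b row ENSDARG00000058252.

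The ADAMTS gene adamts18 had the largest rise among the 53 rows. In humans, ADAMTS18 is known from inherited eye disease, and its substrates are little defined. The values of adamts18 were 5.44, 12.2, 19.3, 23.6 and 7.15 normalized read counts in P1 and 256, 236 and 455 in P2. The lowest P2 library lay far above the highest P1 library. Its log2 fold change was 4.56 (SE 0.46, adjusted p = 7.14e-05), and the P2 mean was 23.3 times the P1 mean. It was the only row of the 42 to pass stricter limits, an adjusted p below 0.001 and a log2 fold change above 1.6 on the log2(value + 1) scale, which 0.433% of all tested genes passed upwards. The adjusted p was at most 0.00128 whichever library was left out.

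Proteoglycan-cutting ADAMTS genes were called in both directions. The gene adamts1, whose protein cuts versican and aggrecan, had 34.1, 116, 44.5, 18.5 and 39.0 normalized read counts in P1 and 348, 127 and 391 in P2. The P2 library 2 value was only just above that of P1 library 2. The rise in adamts1 was 2.60 on the log2 scale (SE 0.52, adjusted p = 0.00750), and leaving out P2 library 1 ended the call (0.0550). For adamts15a, a related proteoglycanase gene, the values were 21.5, 17.2, 19.9, 10.2 and 20.48 in P1 and 103.2, 36.1 and 43.3 in P2, all P2 libraries being above all P1 libraries. Its log2 fold change was 1.5999 (SE 0.42, adjusted p = 0.0261), lost without P1 library 5 (0.0563), P2 library 1 (0.132) or P2 library 4 (0.0556). In the RefSeq annotation adamts15a overlaps adamts8a, which was not called (log2 fold change 0.41, SE 0.69, adjusted p = 0.720).

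The copy adamts15b on row ENSDARG00000033544 had 5.74, 8.90, 10.4, 9.13 and 2.93 normalized read counts in P1 and 1.02, 1.65 and 0.293 in P2. Every P2 library lay below every P1 library, with 9 to 48 reads per P1 library and 1 to 6 per P2 library. No P2 library had the 10 reads that the filter asks for, so the row was tested only through P1, where it is high. The log2 fold change of adamts15b ENSDARG00000033544 was -2.05 (SE 0.53, adjusted p = 0.0248), and the call was lost without P1 library 3 (0.0639), P1 library 5 (0.0599), P2 library 1 (0.0752) or P2 library 4 (0.0924), with voom (0.0869) and without the low-count filter (0.0570). The second row of that symbol, ENSDARG00000058252, which another name table calls ADAMTS8, differed by -0.10 on the log2 scale (SE 0.55, adjusted p = 0.916).

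For adamts5, the gene of an aggrecanase, the values were 4.53, 6.86, 6.42, 4.56 and 5.53 normalized read counts in P1 and 27.8, 6.88 and 26.1 in P2. P2 library 2 lay just above the highest P1 library and the other P2 libraries were far above. For adamts5 the log2 fold change was 1.49 (SE 0.51, adjusted p = 0.0654), and it was called without P2 library 2 (0.00809) and with DESeq2 (0.0175). The gene adamts9, of another versican-cutting protease, was not called (log2 fold change 0.29, SE 0.34, adjusted p = 0.589).

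Of the genes whose human counterparts act on fibrillin microfibrils, adamts10 was called and adamts17 and adamts6 were not. In humans, ADAMTS10 and ADAMTS17 are mutated in Weill-Marchesani syndrome, a disorder with short stature. For adamts10 the values were 5.44, 8.52, 8.19, 6.44 and 9.10 normalized read counts in P1 and 38.3, 20.6 and 168 in P2. P1 libraries were close together, P2 libraries spread widely with library 4 on top, and the groups did not overlap. The rise in adamts10 was 2.64 on the log2 scale (SE 0.57, adjusted p = 0.0111), and the call held whichever library was left out (adjusted p up to 0.0432). For adamts17 the values were 5.14, 3.15, 1.99, 4.29 and 3.58 in P1 and 18.3, 4.68 and 34.8 in P2, so that P2 library 2 lay within the P1 range. For adamts17 the log2 fold change was 1.81 (SE 0.59, adjusted p = 0.0571), called without P2 library 2 (0.00646), with edgeR (0.0403) and with DESeq2 (0.00640). The value for adamts6 was 0.15 (SE 0.54, adjusted p = 0.874).

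ADAMTS7 and adamts12 encode the pair known in mammals for cutting cartilage oligomeric matrix protein. ADAMTS7 had 6.35, 17.2, 17.3, 13.4 and 7.80 normalized read counts in P1 and 49.5, 18.2 and 67.6 in P2. P2 library 2 was barely above P1 libraries 2 and 3. ADAMTS7 rose by 1.69 on the log2 scale (SE 0.50, adjusted p = 0.0409). The ADAMTS7 call held only without P1 library 2 (0.0348) or P2 library 2 (0.00827) and was lost without any of the other libraries (0.0543 to 0.172), with library-size scaling (0.0566), median-of-ratios factors (0.0561), TMM (0.0560) or voom (0.0612), and without the low-count filter (0.0615). For adamts12 the values were 56.2, 71.7, 72.4, 66.6 and 62.1 in P1 and 81.1, 78.7 and 119 in P2, not overlapping but with a log2 fold change of only 0.47 (SE 0.28, adjusted p = 0.265).

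The procollagen N-proteinase genes adamts2, adamts3 and adamts14, whose proteins remove the amino-terminal propeptide of fibrillar procollagens, were not called. For adamts14 the values were 8.46, 12.97, 8.63, 6.44 and 5.202 normalized read counts in P1 and 23.1, 12.1 and 30.7 in P2 (log2 fold change 1.26, SE 0.45, adjusted p = 0.0790), and adamts14 was called without P2 library 2 (0.0303). For adamts3 they were 21.8, 61.9, 18.6, 15.6 and 15.3 in P1 and 56.7, 23.1 and 98.9 in P2 (1.12, SE 0.54, adjusted p = 0.169), with the value of P1 library 2 above those of P2 libraries 1 and 2. Leaving out P1 library 2 gave adamts3 an adjusted p of 0.0499, and leaving out P2 library 2 one of 0.0416. For adamts2 the P1 values ran from 38.2 to 60.7 and the P2 values from 25.8 to 43.9 (-0.55, SE 0.32, adjusted p = 0.257). Beside these genes, P1 library 2 had the highest tendon and fin mesenchyme sum, 13814.5, mostly from and1 (4370) and and2 (6257). From the same list, scxa (57.8), tnmd (301) and pdgfra (728) were the lowest in P1 there. The part of such cells in its adamts3 value was not tested.

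None of the 4 ADAMTS-like genes was called. In humans, ADAMTSL2 is mutated in geleophysic dysplasia, a growth disorder in which microfibrils and TGF-beta signaling are affected. The values of adamtsl2 were 641, 178, 204, 185 and 477 normalized read counts in P1 and 176, 148 and 156 in P2. Every P2 library lay below every P1 library, P1 libraries 1 and 6 being far above the rest and P1 libraries 2 and 5 close to P2, and the log2 fold change was -0.86 (SE 0.43, adjusted p = 0.186). P1 libraries 1 and 6 were also those with the highest muscle sums (37959 and 55204, with 2177 to 3351 in the other P1 libraries), but P2 library 2, with a muscle sum of 28214, had the lowest adamtsl2 value. The part of muscle cells in the adamtsl2 reads was not tested. The other log2 fold changes were 0.17 for adamtsl3 (SE 0.58, adjusted p = 0.865), -0.30 for adamtsl5 (SE 0.63, adjusted p = 0.780) and -0.68 for adamtsl7 (SE 0.53, adjusted p = 0.398).

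Across the 11 genes called higher, the P2 libraries were ordered in a similar way: P2 library 2 was the lowest P2 library for 7 of them and P2 library 4 the highest for 7. P2 library 2 was the highest for 3, mmp9, timp2a and timp2b. In P1, library 1 was the highest for 6 of the 11. Without P2 library 2, 11 of the 13 called rows remained called and 7 others were added: adamts3, adamts5, adamts14, adamts17, mmp15b, mmp17b and the mmp13a row ENSDARG00000114451. Calls over all genes also rose without that library, from 2700 to 3992.

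The remaining rows, adamts13, adamts16, mmp19, mmp20a and mmp21, together with those named above, made up the 11 that were not tested. They had 2 to 53 reads over the 8 libraries and at most 28 in any library, and adamts16, mmp25a and mmp15a ENSDARG00000051959 had no read in any P2 library. Because of the read filter, a difference between P1 and P2 was not tested for them in the main analysis. All 29 tested rows that were not called had log2 fold changes between -3.25 and 1.81, 16 above 0 and 13 below.

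Other genes of the pathway were read from 4 lists, to be set beside the 7.57% of all tested genes called higher, the 7.05% called lower and the 14.6% called in either direction. Of 20 tested activators, receptors and further inhibitors of matrix proteases, 3 were called higher and 1 lower, with a median log2 fold change of -0.01, counts too close to those shares to be a result about the list. The gene reck, of a membrane-anchored MMP inhibitor, had 5.14, 34.1, 12.8, 4.29 and 25.4 normalized read counts in P1 and 321, 68.5 and 463 in P2 (log2 fold change 4.04, SE 0.71, adjusted p = 0.00349). Every P2 value of reck was above every P1 value, and the call held whichever library was left out (up to 0.0309). The gene lrp1ab, of an endocytic receptor that clears proteases with their inhibitors, rose by 2.27 (SE 0.51, adjusted p = 0.0133), and plaub, of the urokinase-type plasminogen activator family, fell by 1.68 (SE 0.49, adjusted p = 0.0400), both on the log2 scale. The lrp1ab call was lost without P2 library 1 (0.0783) or P2 library 4 (0.0672). The plaub call held only without P1 library 2, reaching an adjusted p of up to 0.0941. Reads of plaub stayed below the 10 that the filter asks for in every P2 library. That gene was therefore tested only through P1, where it is high.

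Of 16 other secreted or bone matrix proteases, 7 were called higher and none lower, with a median of 0.93, beside 7.57% and 7.05% of all tested genes. The endopeptidase gene phex, mutated in human X-linked hypophosphatemic rickets, had 31.7 to 122 normalized read counts in P1 and 3218 to 4118 in P2 (log2 fold change 5.92, SE 0.38, adjusted p = 2.09e-06). The gene cpz, of the secreted carboxypeptidase Z, had 12.99 to 19.6 in P1 and 334 to 437 in P2 (4.39, SE 0.29, adjusted p = 2.44e-06). The groups did not overlap for phex or cpz, and both calls held whichever library was left out (adjusted p up to 9.46e-05). The htra1a call held as well (up to 0.0297). The bmp1a call was lost without P2 library 1 (0.0562), and the htra3a and tll1 calls without P2 library 1 or 4 (up to 0.0637 and 0.0704). For prss35 the call was lost without P1 library 3, 5 or 6 or P2 library 1 or 4 (up to 0.103).

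Of 13 membrane ADAM proteases, relatives that shed proteins from the cell surface, 2 were called higher and 1 lower, with a median of 0.19, again too few to be read against 14.6% as a result about the list. They were adam10b (log2 fold change 2.65, SE 0.70, adjusted p = 0.0261), adam17b (1.37, SE 0.38, adjusted p = 0.0311) and adam19b (-1.74, SE 0.47, adjusted p = 0.0291). The adam10b call was lost without P1 library 3 or 5 or P2 library 1 or 4, the adam17b call without P1 library 1, 3, 5 or 6 or P2 library 1 or 4, and the adam19b call without P1 library 1, 3 or 5 or P2 library 1 or 2, with adjusted p up to 0.125, 0.122 and 0.0747. Of 19 matrix substrates, 2 were called higher and 1 lower, with a median of 0.07, a share near the 14.6% of all tested genes. The collagen genes col10a1a (7.82, SE 0.43, adjusted p = 5.12e-07) and col1a1b (1.42, SE 0.41, adjusted p = 0.0371) were higher in P2, and hapln1b, of a cartilage link protein, was lower (-2.39, SE 0.50, adjusted p = 0.00899). The calls of col10a1a and hapln1b held whichever library was left out, and that of col1a1b was lost without P1 library 2, 3, 5 or 6 or P2 library 1 or 4 (up to 0.153).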

How the data were processed

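The deposited table holds 1 row per Ensembl gene and a signal value per library, which the authors made by aligning single-end reads to GRCz11 with the nf-core RNA-seq pipeline, counting them per gene and dividing each count by 1 size factor per library (DESeq2). Strand handling was not stated, and the libraries carried no molecular identifiers, so the 3-read floors cover counting error only. From the steps between values, whole reads were recovered: 100% of values came out whole within 0.01 read. Rows without a symbol were kept under their identifier. Not used were 10 columns of a second count table that match no library of the series, and 2 tables with the authors' own fold changes and p-values for their comparisons.

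The normalized values were tested as log2(value + 1) with limma 3.58.1 (trend, moderated over all genes), 5 P1 against 3 P2 libraries with no covariate, on the 18475 genes that had 10 reads or more in 3 libraries or more. The Benjamini-Hochberg adjustment ran over all of them, with a threshold of 0.05. The script was tested on simulated data. edgeR 4.0.16 and DESeq2 1.42.0 were run on the recovered reads as alternatives, edgeR calling 1982 genes, beside other scalings, filters, pseudocounts, voom and a robust trend, and leaving out each library in turn. The ratios of paralogs, with and without 1 added to the values and with their leave-one-out values, and the alternatives for genes outside the naming rule were chosen after seeing the data.

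The genes and lists were chosen with earlier results of these data known. Values are given for every called row, every timp row, a set of mmp, adamts and adamtsl genes with known roles, and, from each list of other genes, the 2 largest called rises and falls. Also named, after their values were seen, are adamts6, adamts8a, adamtsl7, mmp24, the untested rows and further called genes of the bone matrix protease list. The same holds for epcam, cldni, evpla and tp63 of the keratinocyte list and for single genes named from the other marker lists. Sums of marker genes per library were made with no test. Of the 53 identifiers, 52 were found in a second name table, and neighbouring genes were read from RefSeq on another assembly, so no coordinates are given. No sequences are shown, since none was used here. Numbers 1 and 2 occur in both P1 and P2, with a shared label stem whose meaning is not stated. They were not used as pairs in the main test, and the deviations of same-numbered libraries correlated at 0.00100 and -0.127.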

Additional observations from a re-analysis of the deposited data

Results flagged for a closer look

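The 42 tested genes were checked in P1 for a library far from the other P1 libraries, and 7 had one. Chance alone marks about 1 in 20 independent groups of normally distributed values. These genes share their libraries and were checked as untransformed values, so the 7 cannot be set against that share. Groups of 3 libraries were not checked, so P2 was not examined in this way. P1 library 1 stood far above the other P1 libraries for mmp2 (1809 normalized read counts), mmp14a (1895) and timp2a (2015). In the same library the osteoblast marker sum was 1395, with 374 to 802 in the other P1 libraries and 46967 to 65547 in P2. Its muscle sum was 37959, where P1 library 6 had 55204 and the remaining P1 libraries 2177 to 3351. Its osteoclast sum (928), mostly tnfrsf11a (456) and ctsk (360), was the highest in P1. P1 library 2 stood far above the others for adamts1 (116), adamts3 (61.9), mmp11b (20.6) and mmp30 (32.6). In that library the keratinocyte sum was 25215 and the tendon and fin mesenchyme sum 13814.5, the latter mostly from and1 (4370) and and2 (6257). The part of these cells in the values was not tested.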

How the results depend on the processing

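The 13 calls among the matrix protease and inhibitor genes came to between 9 and 15 under the other scalings, filters, pseudocounts and tests that used all libraries, and to 4 to 18 when 1 library was left out (4 without P2 library 1, 18 without P2 library 2). Calls over all genes were 2700 in the main analysis, 1741 when each library had to hold 10 reads, 1601 with voom and 3685 with DESeq2, and ranged from 876 to 3992 when 1 library was left out. Median-of-ratios factors moved the median log2 fold change of all genes by -0.13 and TMM by -0.12, and the share of calls that were higher in P2 went from 51.8% to 39.6% and 39.9% (under the stricter read filter it was 73.8%, with voom 67.6% and with DESeq2 41.95%), while 8 of the 10 called protease and inhibitor genes were still higher under both of these scalings. On replicates 1 and 2 alone, 1 of these genes was called with the replicate block and 1 without it, and 359 and 149 of all genes. The block thus gave more calls over all genes and the same number among these genes. Directions that turned were those of genes not called: with and without the block, adamts3 was -0.020, adamtsl3 -0.17, mmp11b -0.57, mmp15a ENSDARG00000051962 -0.11, MMP23B -0.17, adamts6 -0.15 and adamts15b ENSDARG00000058252 0.51 (0.030 with voom). For adamtsl5 edgeR gave 0.061 and DESeq2 0.073. Leaving out 1 library gave -0.53 to 0.88 for adamtsl3, -1.13 to 0.32 for adamtsl5, -0.024 to 1.205 for mmp11b, -0.11 to 1.31 for mmp15a ENSDARG00000051962, -0.99 to 0.45 for timp4.1, -0.42 to 0.19 for adamts15b ENSDARG00000058252, -0.43 to 0.63 for adamts6, -0.29 to 1.32 for adamts8a and -1.10 to 0.17 for mmp24. The causes were not tested. With at most 28 reads in any library for the 11 untested genes, depth limits what can be said of them.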
